A study of Mus musculus with 6 samples.

Results

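Of the 193148 chromatin regions counted in every library, 294 (0.152%) had an olfactory or vomeronasal receptor gene as their nearest protein-coding gene. A region was given to the protein-coding gene it overlapped, or otherwise to the nearest gene within 100 kb, and was kept where that gene's symbol began with Olfr, Vmn1r or Vmn2r, or with Or and a digit. The set held 238 regions near Olfr genes, 30 near Vmn1r genes and 26 near Vmn2r genes, on 18 chromosomes. No measured value entered this choice.

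The regions come from ATAC-seq, an assay in which a transposase cuts exposed DNA, of fluorescent nuclei sorted from the ventral tegmental area, the midbrain region that holds many dopamine neurons. The knockdown group was made of Ogtflox+/Y mice and the control group of Ogtflox-/Y mice, with 3 libraries each. Both groups received AAV-TH-Cre, read here as Cre recombinase under the promoter of Th (tyrosine hydroxylase), and AAV-DIO-H2B-EGFP, a Cre-dependent label of nuclei, so Cre and the label were also present in controls. Ogt encodes the enzyme that attaches O-linked N-acetylglucosamine to proteins. The labels give no age, and nothing in them ties libraries to separate animals, so every p-value rests on the spread among these libraries and that spread may be technical. The title of knockdown replicate 1 names the control genotype, against its genotype label, which was followed here.

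Olfactory receptors of the Olfr family are odorant receptors of the nose, and Vmn1r and Vmn2r genes encode the pheromone receptors of the vomeronasal organ. All are G protein-coupled receptors whose genes lie in large arrays. In the mouse nose each sensory neuron transcribes essentially a single receptor allele, while the other receptor genes are packed in heterochromatin that carries methylated histone H3 lysine 9 and histone H4 lysine 20. In other tissues these arrays are known as mostly silent.

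Counts in regions summed to 14067854, 12698758 and 15795872 reads in knockdown libraries, and to 13120042, 24440507 and 19876169 reads in control libraries. Levels are given as CPM, counts per 1000000 reads in regions after TMM scaling, and 3 reads equalled 0.190 to 0.236 CPM in knockdown libraries and 0.123 to 0.229 CPM in control libraries. This floor covers counting error only. Over the 294 regions, log2(CPM + 0.5) of knockdown replicate 1 correlated with the other knockdown libraries at r = 0.897 and 0.927, and with the control libraries at r = 0.746 to 0.776, across regions that are not independent. The most accessible Ogt region had 17.9, 15 and 14.7 CPM in knockdown libraries, against 11.1, 11.1 and 9.09 CPM in control libraries. The labels do not name the floxed exons, so this region does not check the genotype. Th, the enzyme that makes the dopamine precursor, reached 172 to 238 CPM in knockdown libraries and 178 to 379 CPM in control libraries, and all 8 dopaminergic markers had a region. The level of Th does not stand for the set, as Slc6a3 had 4.32 to 4.68 CPM in knockdown and 3.83 to 4.17 CPM in control libraries. Pitx3 and En1 were higher in knockdown (log2 change 0.46 and 0.62, edgeR adjusted p = 0.0074 and 0.011). The others were not called, Th among them (log2 change -0.44, edgeR adjusted p = 0.076). Of the olfactory sensory neuron markers, Cnga2, a channel, had no region overlapping the gene or within 1 kb of it, while the other 4 had one. Those 4 summed to 54.3 to 57.9 CPM in knockdown and 42.8 to 47.3 CPM in control libraries, with Gnal and Adcy3, which are also used in brain, higher and Omp lower in knockdown. Of the vomeronasal markers, the channel Trpc2 had none, and the G protein subunits Gnao1 and Gnai2, also used in brain, summed to 103 to 130 CPM in knockdown and 74.8 to 78.5 CPM in control libraries, both higher. Markers of other cell types differed between the groups in both directions. GABAergic markers summed to 46.8 to 63.2 CPM in knockdown and 31.0 to 41.3 CPM in control libraries, and oligodendrocyte markers to 49.4 CPM in knockdown replicate 1, against 30.7 to 35.1 CPM in the other 5 libraries. The 5 astrocyte markers summed to 28.6 to 41.5 CPM in knockdown and 26.3 to 30.2 CPM in control libraries, with Aqp4, Gja1 and Gfap higher, Aldh1l1 lower (log2 change -0.53, edgeR adjusted p = 0.022) and Slc1a3 not called. The microglia sum was lower in every knockdown library, at 2.59 to 3.48 CPM in knockdown and 6.60 to 8.36 CPM in control libraries. It rested mostly on P2ry12 (log2 change -1.45, edgeR adjusted p = 2.2e-04). C1qa overlapped between the groups and was not called (edgeR adjusted p = 0.25), and Cx3cr1 and Tmem119 had no region. Of endothelial markers, Pecam1 was higher and Cldn5 lower, and of glutamatergic markers, Slc17a7 was lower. The part of these markers in the results below was not tested, and in bulk nuclei more cells of a type and more accessibility per cell cannot be told apart.

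Receptor genes held far fewer regions than other genes. Of 1465 receptor genes, 194 (13.2%) had at least 1 region, against 17105 of 20431 other protein-coding genes (83.7%). A region overlapped 21 receptor genes (1.43%), against 15724 other genes (77.0%). By family, 154 of 1110 Olfr genes (13.9%), 20 of 231 Vmn1r genes (8.66%) and 20 of 124 Vmn2r genes (16.1%) had a region. Most receptor genes with a region, 136 of 194, had a single one, and the largest number was 7. Genes of 1 array are neighbours and share regions by this rule, so they are not independent. These comparisons did not adjust for gene length, and a shorter gene has less room for an overlap. How reads that match more than 1 receptor gene were handled is not stated. The part of either in these shares was not tested.

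Annotated promoter windows of receptor genes almost never overlapped a region, and their sequence differed from that of other windows. In RefSeq promoter windows of GRCm38.p6 (mm10), which run from 250 bases before to 50 bases after the gene start, a region overlapped 3 of 1267 receptor genes (0.237%) and 10438 of 16224 other protein-coding genes (64.3%). The median GC content was 35.7% in 1272 receptor windows and 57.3% in 19990 other windows, and the median number of CpG dinucleotides was 1 in receptor windows and 14 in others. The letters TATAAA, known as the core promoter box of that name, stood on either strand in 39.5% of receptor windows, 10.9% of other windows and 12.6% of all windows. TAATTA, the core of homeodomain motifs such as that of Lhx2, a factor of olfactory neurons, stood in 16.6% of receptor windows, 3.76% of others and 4.53% of all. CCCNNGGG, the core of the Ebf motif, stood in 4.17% of receptor windows, 16.4% of others and 15.6% of all. TAATTA and TATAAA matches can share letters and can stand in the same window, and a match is a description and not a site. The windows follow the annotated gene start. Where that start is the first codon and not the start of transcription, a window can miss the promoter. How many receptor windows this affects was not tested.

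The 3 receptor promoter windows that overlapped a region are shown because they are the exceptions to that pattern. Each is written 5′ to 3′ along its gene, with the bases inside the accessible region in capitals. Olfr373 lies on the plus strand (chr8:72099512-72099811), Olfr287 on the minus strand (chr15:98221007-98221306) and Olfr95 on the minus strand (chr17:37211802-37212101).
Olfr373: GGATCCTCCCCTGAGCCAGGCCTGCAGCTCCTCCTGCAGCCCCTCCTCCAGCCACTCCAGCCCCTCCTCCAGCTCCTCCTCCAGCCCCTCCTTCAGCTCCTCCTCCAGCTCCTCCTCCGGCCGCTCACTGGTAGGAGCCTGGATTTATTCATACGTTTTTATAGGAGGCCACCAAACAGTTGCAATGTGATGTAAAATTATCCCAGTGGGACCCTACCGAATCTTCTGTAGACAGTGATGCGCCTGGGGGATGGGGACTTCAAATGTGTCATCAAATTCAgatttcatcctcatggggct
Olfr287: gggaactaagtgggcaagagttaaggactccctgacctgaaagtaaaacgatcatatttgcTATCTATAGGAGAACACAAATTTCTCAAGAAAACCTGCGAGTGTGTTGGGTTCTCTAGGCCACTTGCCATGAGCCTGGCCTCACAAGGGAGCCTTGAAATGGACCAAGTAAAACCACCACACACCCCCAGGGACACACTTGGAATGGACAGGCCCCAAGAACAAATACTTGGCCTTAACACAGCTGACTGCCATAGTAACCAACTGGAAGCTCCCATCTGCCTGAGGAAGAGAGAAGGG
Olfr95: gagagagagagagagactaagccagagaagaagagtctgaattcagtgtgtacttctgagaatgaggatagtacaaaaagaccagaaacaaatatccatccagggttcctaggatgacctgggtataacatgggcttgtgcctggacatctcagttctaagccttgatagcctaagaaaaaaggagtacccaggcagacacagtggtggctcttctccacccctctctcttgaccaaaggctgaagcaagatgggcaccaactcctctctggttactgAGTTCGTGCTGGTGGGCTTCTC
The region covered 280 of 300 bases at Olfr373, 239 at Olfr287 and 22 at Olfr95. At Olfr373 and at Olfr95 the annotated start falls on the letters ATG. The 22 covered bases at Olfr95 all lie after it, so they are not upstream promoter sequence. At Olfr373 the covered bases lie on both sides of the start, and whether they hold the promoter was not tested. GC content was 56% at Olfr373, 49% at Olfr287 and 48.3% at Olfr95, each above the receptor median. A TATAAA match began 93 bases before the start of Olfr373, and a CCCNNGGG match 65 bases before the start of Olfr287.

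The region over the Olfr373 promoter window (chr8:72099391-72099791) had 0.907, 0.872 and 0.532 CPM in knockdown libraries, against 1.98, 2.15 and 1.85 CPM in control libraries. The groups did not overlap, and it fell by 1.38 on the log2 scale (SE 0.31, edgeR adjusted p = 0.0033). The region at the Olfr95 start had 5.97, 4.12 and 5.52 CPM in knockdown and 8.28, 9.65 and 7.48 CPM in control libraries. It too was lower in every knockdown library, by a log2 change of -0.70 (edgeR adjusted p = 0.0083). The region over the Olfr287 promoter had 3.70, 1.43 and 3.79 CPM in knockdown and 1.98, 1.52 and 1.75 CPM in control libraries. Here knockdown replicate 2 lay below all controls while the other knockdown libraries lay above them, and the log2 change of 0.80 did not pass the threshold (edgeR adjusted p = 0.057). Without knockdown replicate 2 the change was 1.11 (edgeR adjusted p = 0.0022).

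The regions that did exist were weaker than regions elsewhere, except far from the gene. Their median level over the 6 libraries was 1.84 CPM, with a range of 0.548 to 55.7 CPM, against 2.36 CPM over the 192854 other regions. The median was 1.97, 1.86 and 1.53 CPM in knockdown and 1.82, 1.76 and 1.85 CPM in control libraries near receptors, against 2.26 to 2.30 and 2.38 to 2.43 CPM elsewhere. It was lower in 6 of 6 libraries, at 0.765 times the level elsewhere (exact sign-flip permutation test over libraries, two-sided p = 0.03125, the smallest that 6 libraries allow, adjusted over 6 such tests p = 0.0375). All libraries count the same regions, so each of the 6 tests measures only how the ratio repeats over libraries. None of them measures the spread over regions or arrays. Regions near receptors were about as wide as others, with 96.9% at 401 bp against 94.6%, so CPM per region is close to a level per length.

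Within 1 kb of a gene end the 19 receptor regions had medians of 1.44, 1.27 and 1.40 CPM in knockdown and 1.22, 0.742 and 1.18 CPM in control libraries. The 3605 other regions at gene ends had 4.40 to 4.92 CPM, and the ratio was 0.249 (lower in 6 of 6 libraries). Overlapping the gene, 29 receptor regions stood at 0.636 times the other regions of that kind, and the 129 at 1 to 10 kb stood at 0.682 times. The 117 receptor regions at 10 to 100 kb stood at 1.02 times the other regions at that distance, with 2 of 6 libraries lower (exact p = 0.625, adjusted p = 0.625). The first 3 ratios each had an exact permutation p of 0.03125, adjusted p = 0.0375.

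**Figure D1:**
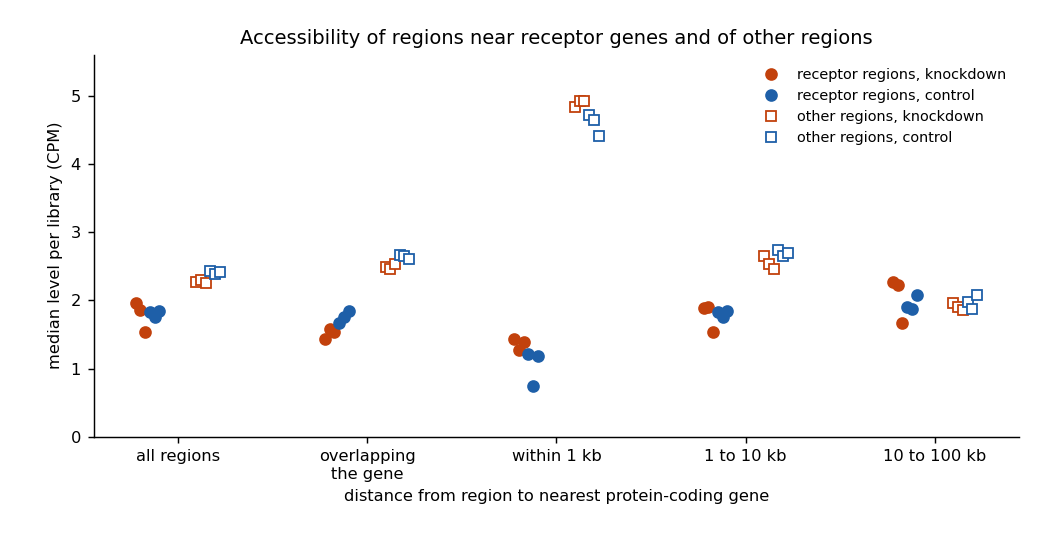
Median CPM of regions near receptor genes and of other regions by distance from the gene, with 1 point per knockdown or control library. Receptor regions lie below other regions in all 6 libraries up to 10 kb from the gene, most clearly within 1 kb of a gene end (ratio 0.249), and overlap with them at 10 to 100 kb.

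Regions with a receptor gene on both sides were weaker than those at the edge of an array. The 163 regions inside arrays had medians of 1.51, 1.59 and 1.40 CPM in knockdown and 1.37, 1.52 and 1.52 CPM in control libraries. The 131 edge regions had 2.72, 2.38 and 2.19 CPM in knockdown and 2.43, 2.58 and 2.56 CPM in control libraries. The ratio was 0.600, lower inside in 6 of 6 libraries (exact permutation p = 0.03125, adjusted p = 0.0375). By family the median was 1.86 CPM near Olfr, 1.44 CPM near Vmn1r and 2.05 CPM near Vmn2r genes.

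Receptor genes less than 1 Mb apart were grouped into 71 arrays, where a receptor gene standing alone also counts as an array. Of these, 21 (49 genes, at most 8 in an array, many of them a single gene) had no region assigned to them. Together the array spans covered 62.0 Mb and held 1009 regions of any gene, or 16.3 regions per Mb, against 76.9 per Mb in the rest of the genome. The part of reads that match more than 1 place in this density was not tested. The largest array, Olfr987 to Olfr1274 on chromosome 2, held 222 genes in 5.07 Mb and 10 regions.

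Among the preset receptors with reported roles outside the nose or a long record of study, Olfr78, Olfr558, Olfr316, Olfr1507, Olfr17, Olfr2, Vmn2r26 and Vmn1r49 had no region. Olfr287 had 3 regions and Olfr16 had 4. The most accessible Olfr16 region, 33495 bp from the gene, had 2.04, 2.62 and 2.06 CPM in knockdown, against 0.988, 0.586 and 1.14 CPM in control libraries. It was higher in every knockdown library, with a log2 change of 1.33 (SE 0.31, edgeR adjusted p = 0.0039).

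The most accessible regions lay mostly at array edges or beside other annotated features. The strongest, 4365 bp from Olfr288 on chromosome 15 and inside the long noncoding RNA gene Gm33909, had 59.7, 52.9 and 64.7 CPM in knockdown and 54.9, 50.2 and 51.6 CPM in control libraries. The groups did not separate by the test (log2 change 0.18, edgeR adjusted p = 0.17). A region overlapping Vmn1r4 had 46.6, 40.7 and 40.3 CPM in knockdown and 41.8, 38.6 and 38.6 CPM in control libraries (log2 change 0.10, edgeR adjusted p = 0.45). Near Olfr94 the values were 26.4, 26.4 and 31.2 CPM in knockdown and 24.9, 26.7 and 30.1 CPM in control libraries, with overlapping groups (edgeR adjusted p = 0.82). Near Olfr1358 they were 24.9, 25.7 and 25.3 CPM in knockdown and 22.9, 22.7 and 19.98 CPM in control libraries (edgeR adjusted p = 0.13). These 4 regions were not called.

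The other 4 of the 8 strongest regions were called higher. Beside Olfr545, at the pseudogene Gm8556, the region had 40.4, 36.7 and 39.7 CPM in knockdown, against 24.5, 25.7 and 26.7 CPM in control libraries (log2 change 0.60, edgeR adjusted p = 2.8e-04). Near Olfr750, at an annotated tRNA gene, it had 46.3, 44.5 and 37.5 CPM in knockdown, against 35.6, 27.2 and 28.1 CPM in control libraries (log2 change 0.50, edgeR adjusted p = 0.0038). Near Olfr1344 it had 29.6, 28.4 and 31.4 CPM in knockdown, against 24.2, 21.0 and 19.7 CPM in control libraries (log2 change 0.47, edgeR adjusted p = 0.0035). In all 3 the groups did not overlap. With scaling by library totals the adjusted p was 0.15 for the Olfr750 region and 0.22 for the Olfr1344 region. The Olfr726 region had 23.0, 23.1 and 24.2 CPM in knockdown and 20.2, 18.5 and 19.3 CPM in control libraries (log2 change 0.28, edgeR adjusted p = 0.049), a call that was lost with DESeq2 (adjusted p = 0.11), with either other scaling and without any 1 of the 6 libraries.

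With TMM scaling, regions near receptors were called higher about as often as regions elsewhere, and lower somewhat more often. In the edgeR quasi-likelihood fit over all regions, with Benjamini-Hochberg adjusted p under 0.05 as the call, 45 of 288 tested receptor regions (15.6%) were higher in knockdown, against 15.4% of all 191693 regions tested. Lower in knockdown were 46, against 12.7% of all regions. The other 6 of the 294 did not pass the filter on low counts. The median log2 change of knockdown over control was -0.09 near receptors and -0.01 over all other regions. Scaling by library totals gave 31 higher and 84 lower of 288, with 6.82% and 24.6% over all regions, so the balance of directions depends on the scaling. DESeq2 gave 31 higher and 27 lower of 294, with 10.9% and 7.69% over all regions. Grouped by title instead of genotype label, edgeR called 0 in either direction, with 12 higher and 31 lower at an unadjusted p under 0.05.

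By family, 34 higher (14.7%) and 38 lower (16.4%) were counted among 232 Olfr regions tested (median log2 change -0.14). The counts were 9 (30.0%) and 2 (6.67%) among 30 Vmn1r regions (0.18), and 2 (7.69%) and 6 (23.1%) among 26 Vmn2r regions (-0.33). Over all regions tested the shares were 15.4% higher and 12.7% lower. Inside arrays 26 of 158 were higher (16.5%) and 25 lower (15.8%), and at edges 19 of 130 were higher (14.6%) and 21 lower (16.2%). Of the 29 regions overlapping a receptor gene, 2 were higher (6.90%) and 7 lower (24.1%), against 15.3% and 12.3% of tested regions overlapping other genes.

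**Figure D2:**
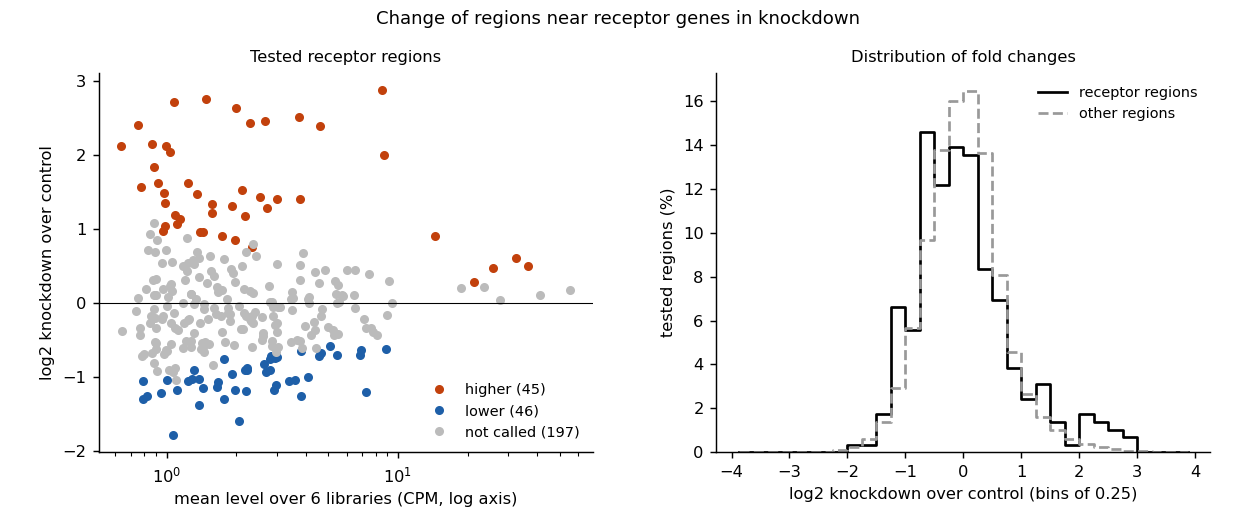
Left, log2 fold change of knockdown over control against mean level (CPM, log axis) for the 288 tested regions near receptor genes, 1 point per region, with 45 called higher and 46 lower; right, percent of tested receptor regions and of all other tested regions per bin of log2 fold change. Both distributions centre near 0 (medians -0.09 and -0.01), and the receptor regions past a log2 change of 2 are all gains.

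The gains reached larger folds than the losses. Among gains, 34 (75.6%) were at least 2-fold and 14 (31.1%) at least 4-fold, against 43.1% and 6.05% of called gains elsewhere (median log2 change 1.40 near receptors and 0.91 elsewhere). Among losses, 25 (54.3%) were at least 2-fold and 0 at least 4-fold, against 40.4% and 1.23% elsewhere (median -1.03 near receptors and -0.92 elsewhere). Gains thus passed 4-fold more often than losses over other regions as well. These folds are of called regions only, and a weaker region needs a larger fold to be called. Receptor regions were weaker, with a median of 1.84 CPM against 2.36 CPM and a 95th percentile of 8.61 CPM against 21.3 CPM elsewhere. The part of level in these fold sizes was not tested. At 21 of 45 gains (46.7%, against 49.4% elsewhere) the lowest of the knockdown values belonged to replicate 2, and at 29 of 46 losses (63.0%, against 35.1% elsewhere) it belonged to replicate 3. Losses numbered 22 of 290 tested without knockdown replicate 3 (9.05% of all regions) and 29 of 291 without control replicate 1 (7.70%). They numbered 29 of 289 without control replicate 2 (7.66%) and 30 of 286 without control replicate 3 (9.61%). Without knockdown replicate 1 they numbered 41 of 293 (9.14%), and without knockdown replicate 2 they numbered 54 of 292 (12.9%). Gains numbered 32 of 289 without control replicate 2 (9.91%), the fewest with any library left out.

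The largest gain lay 1425 bp from Olfr543, a class I odorant receptor at the start of the class I array of chromosome 7 (chr7:102479327-102479727). It had 15.1, 14.4 and 15.7 CPM in knockdown libraries, or 200, 182 and 236 reads, against 1.37, 2.30 and 2.27 CPM in control libraries, or 18, 59 and 48 reads. No control library came near the knockdown libraries, and the log2 change was 2.88 (SE 0.18, edgeR adjusted p = 3.1e-08). The next, 3871 bp from Olfr66 (chr7:103877035-103877435), lay between that receptor and Hbb-y, an embryonic beta-globin gene 23828 bp away. It had 3.18, 3.01 and 1.66 CPM in knockdown and 0.228, 0.547 and 0.284 CPM in control libraries (log2 change 2.75, SE 0.37, edgeR adjusted p = 7.1e-05), where the control values rest on 3, 14 and 6 reads.

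The other large gains were weak in controls and uneven in knockdown. The region 5722 bp from Olfr1331 had 6.35, 1.43 and 2.59 CPM in knockdown and 0.380, 0.430 and 0.805 CPM in control libraries (log2 change 2.64). The region near Olfr159, within 1 kb of the long noncoding RNA gene A630077J23Rik, had 8.32, 2.22 and 8.44 CPM in knockdown and 1.60, 0.781 and 1.14 CPM in control libraries (2.51). The region 61650 bp from Olfr267 had 7.11, 1.43 and 4.92 CPM in knockdown and 1.06, 0.625 and 0.852 CPM in control libraries (2.46). In each of these 3, knockdown replicate 2 was the lowest knockdown library and still above every control. The region 11446 bp from Olfr987 had 3.86, 1.9 and 5.85 CPM in knockdown and 0.608, 0.547 and 0.994 CPM in control libraries (2.43). Of the vomeronasal receptors, a region 66299 bp from Vmn2r25 had 2.87, 1.03 and 1.73 CPM in knockdown and 0.152, 0.312 and 0.331 CPM in control libraries (2.71). A region overlapping Vmn2r23 had 0.756, 1.66 and 1.40 CPM in knockdown and 0.152, 0.117 and 0.426 CPM in control libraries (2.40, SE 0.50, edgeR adjusted p = 0.0021). Control values of the last 2 regions lie near the level of 3 reads, with 2 to 9 reads per library.

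The largest loss lay 8086 bp from Olfr1402, at 0.378, 0.476 and 0.532 CPM in knockdown, against 2.20, 1.60 and 1.18 CPM in control libraries (log2 change -1.79, SE 0.38, edgeR adjusted p = 0.0022). A region within Olfr287, on its far side from the promoter region, had 0.605, 1.03 and 1.33 CPM in knockdown and 3.95, 2.19 and 3.17 CPM in control libraries (log2 change -1.60, edgeR adjusted p = 0.0014). The region 542 bp from Olfr1373 had 2.87, 1.74 and 2.13 CPM in knockdown and 5.09, 5.35 and 5.68 CPM in control libraries (log2 change -1.26, edgeR adjusted p = 6.1e-04). In these and in the region over the Olfr373 promoter window every knockdown library was below every control library. A region 4170 bp from Olfr1375, on the side of the zinc finger gene Zfp354a, had 0.907, 1.19 and 0.930 CPM in knockdown and 2.96, 1.99 and 2.60 CPM in control libraries (log2 change -1.30).

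The other named losses were less firm. The region 9665 bp from Olfr1385 had 0.378, 0.317 and 0.598 CPM in knockdown and 1.60, 0.742 and 1.09 CPM in control libraries (log2 change -1.30, edgeR adjusted p = 0.034). The region 9338 bp from Olfr922 had 0.832, 0.317 and 0.332 CPM in knockdown and 0.836, 1.37 and 1.23 CPM in control libraries (log2 change -1.25, edgeR adjusted p = 0.033). The region 35327 bp from Vmn1r39, in the long noncoding RNA gene Gm36610, had 0.832, 0.634 and 0.266 CPM in knockdown and 1.22, 1.37 and 1.37 CPM in control libraries (log2 change -1.22, edgeR adjusted p = 0.024). The groups did not overlap at any of the 3, though at Olfr922 the nearest libraries were close. A second Vmn1r39 region, 43555 bp from the gene, was instead higher, with 1.51, 1.59 and 0.997 CPM in knockdown and 0.608, 0.273 and 0.331 CPM in control libraries (log2 change 1.83, edgeR adjusted p = 0.0035). With DESeq2 the adjusted p was 0.098 for Olfr1385, 0.13 for Olfr922 and 0.099 for Vmn1r39, and each call was also lost without some single libraries. The Olfr1385 call was lost without knockdown replicate 1 or 2 or control replicate 1 or 3, the Olfr922 call without knockdown replicate 2 or 3 or control replicate 2 or 3, and the Vmn1r39 call without knockdown replicate 3 or control replicate 2 or 3.

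**Figure D3:**
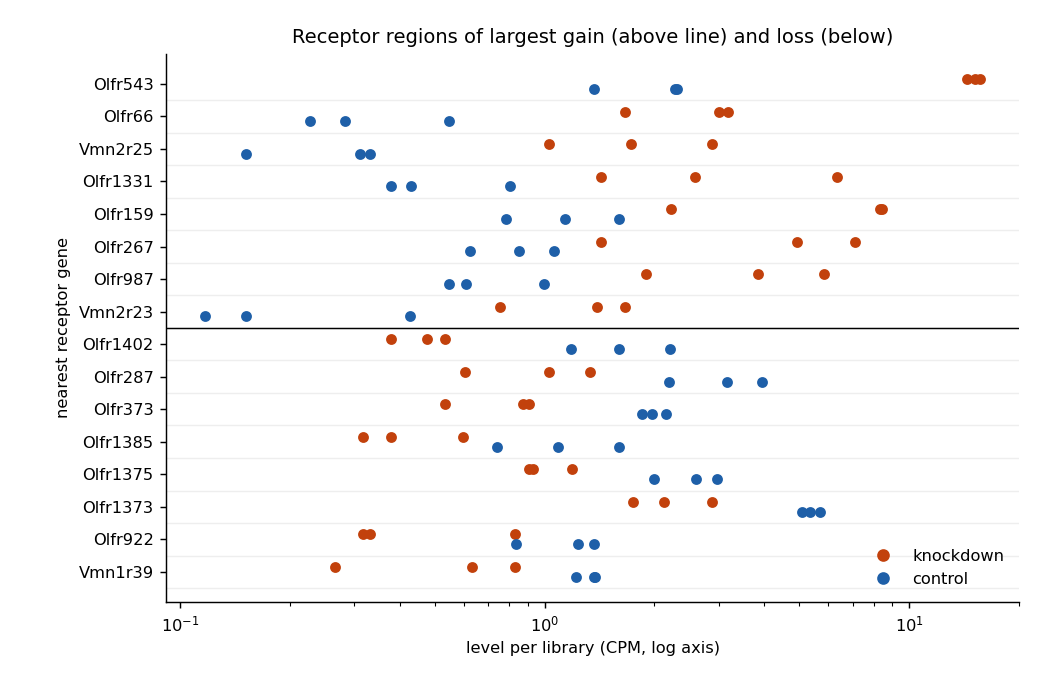
CPM on a log axis of the 8 largest gains and 8 largest losses among regions near receptor genes, with 1 point per library, knockdown above control. In all 16 regions the libraries of the 2 groups do not overlap, and knockdown libraries spread widest at the Olfr1331, Olfr159 and Olfr267 gains.

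Arrays differed in the direction of change. The class I array of chromosome 7 (Olfr543 to Olfr692, 126 genes) had the most regions, 31, of which 9 were higher and 1 lower among 30 tested. Its regions summed to 118, 111 and 107 CPM in knockdown, against 73.5, 74.1 and 76.5 CPM in control libraries. Much of this difference came from 2 regions, with knockdown and control means of 15.1 and 1.98 CPM near Olfr543 and 39.0 and 25.6 CPM near Olfr545. The array of chromosome 13 (Olfr1370 to Vmn1r223, 48 genes) had 8 higher and 0 lower among 20, and its sum was 102, 92.3 and 91.0 CPM in knockdown, against 51.0, 55.1 and 59.5 CPM in control libraries. In both arrays every knockdown sum was above every control sum. Most gains of the chromosome 13 array, though, were regions beyond its last receptor, Vmn1r223, and only 13 of its 20 regions lay within its span. The 7 Vmn1r223 regions held 62.3, 55.2 and 54.6 CPM of its knockdown sums and 18.8, 22.8 and 28.4 CPM of its control sums. The chromosome 9 array (Olfr160 to Olfr986, 95 genes) had 2 higher and 1 lower among 22, with sums of 58.0 ± 9.46 CPM in knockdown and 57.6 ± 5.31 CPM in control libraries (SD, n = 3 each). The chromosome 2 array (Olfr987 to Olfr1274) had 4 higher and 1 lower among 13, with 33.6 ± 2.08 CPM in knockdown and 27.5 ± 2.58 CPM in control libraries. Olfr70 to Olfr155 on chromosome 4 (6 genes) had 2 higher and 1 lower among 12, with overlapping sums of 32.3 ± 3.51 CPM in knockdown and 34.2 ± 1.98 CPM in control libraries.

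Other arrays leaned to losses. Olfr1396 to Olfr1380 on chromosome 11 (19 genes) had 2 higher and 5 lower among 10, with 17.0 ± 0.916 CPM in knockdown and 22.9 ± 1.28 CPM in control libraries. Olfr90 to Olfr136 on chromosome 17 (46 genes) had 0 higher and 4 lower among 10, with 57.4 ± 1.40 CPM in knockdown and 68.8 ± 2.56 CPM in control libraries. Olfr30 to Olfr225 on chromosome 11 (24 genes) had 0 higher and 3 lower among 12, with 28.1 ± 3.79 CPM in knockdown and 34.9 ± 2.14 CPM in control libraries. In these 3 arrays knockdown and control sums did not overlap. Of the 50 arrays with a region, 23 (46.0%) had sums that did not overlap between the groups, and so did the values of 42.1% of all single regions, so this share is near that over all regions.

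The Vmn2r array of chromosome 6 (Vmn2r19 to Vmn2r27, 9 genes) held changes in both directions, with 2 higher and 5 lower among its 7 regions. The gains were the Vmn2r23 and Vmn2r25 regions given above. The 5 losses included Vmn2r19, with 1.81, 2.38 and 1.20 CPM in knockdown and 3.80, 4.06 and 4.17 CPM in control libraries (log2 change -1.18, edgeR adjusted p = 0.0024). In small arrays, both regions of Olfr62 to Olfr1328 on chromosome 4 were higher, both of Olfr161 to Olfr15 on chromosome 16 were lower, and 2 of 3 of Olfr1373 to Olfr1371 on chromosome 11 were lower. The only tested region was lower at Olfr1378 to Olfr1375 and at Olfr462 to Olfr464, both on chromosome 11, and higher at Olfr172 to Olfr209 on chromosome 16.

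**Figure D4:**
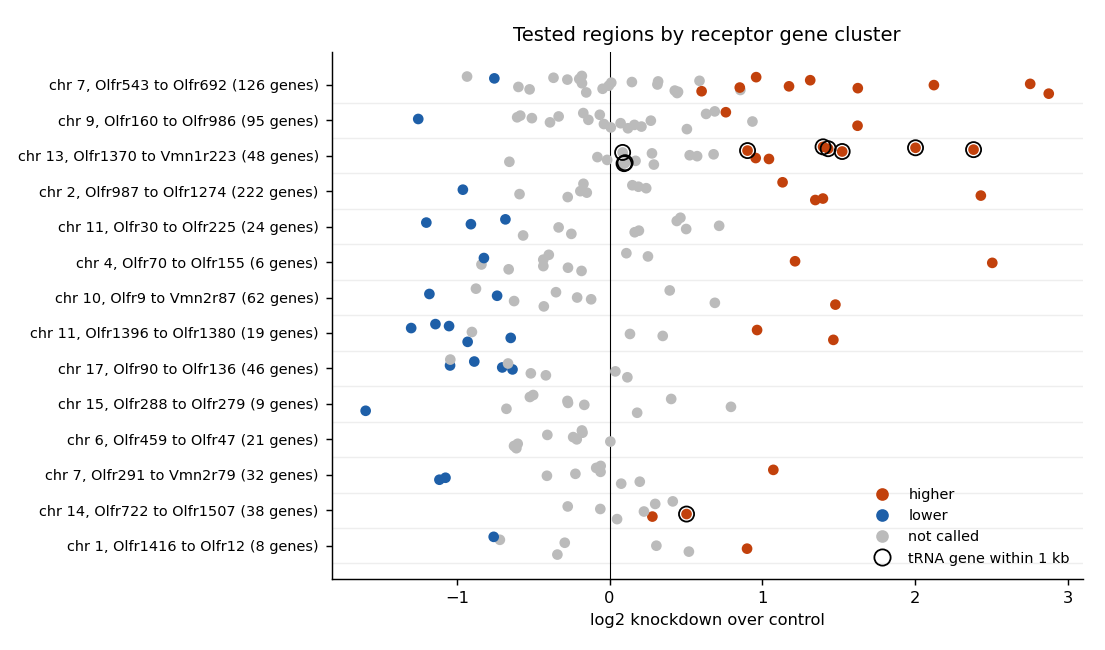
Log2 fold change of knockdown over control of each tested region, 1 point per region and 1 line per receptor array, for the arrays with the most regions, coloured by the edgeR call and ringed where a tRNA gene lies within 1 kb. The class I array of chromosome 7 and the chromosome 13 array lean to gains, and the chromosome 17 array to losses. Most chromosome 13 gains are regions beyond the last receptor, Vmn1r223, near tRNA genes.

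Of the 9 Vmn1r gains, 6 came from a single place. Vmn1r223, the last receptor of the chromosome 13 array, had 7 regions 18732 to 49520 bp beyond it, each within 1 kb of an annotated tRNA gene, and 6 of them were higher. The region at chr13:23285469-23285869 had 9.15, 6.66 and 7.38 CPM in knockdown, against 1.44, 1.29 and 1.70 CPM in control libraries (log2 change 2.38, SE 0.22). The region at chr13:23298952-23299707 had 15.4, 12.6 and 14.2 CPM in knockdown, against 2.13, 3.52 and 4.59 CPM in control libraries (log2 change 2.00). At both, the lowest knockdown library was above the highest control library. Reads summed over the 7 regions gave Vmn1r223 62.3, 55.2 and 54.6 CPM in knockdown and 18.8, 22.8 and 28.4 CPM in control libraries.

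tRNA genes, chosen for a look after these values were seen, lay within 1 kb of 10 receptor regions, of which 7 were higher and 0 lower (median log2 change 1.15). Away from receptors, 305 regions lay as close to a tRNA gene, and 146 of them (47.9%) were higher and 3 (0.984%) lower (median log2 change 0.36). Without the 10, 38 of 278 receptor regions were higher and 46 lower. Among Vmn1r regions off chromosome 13, 1 of 13 was higher and 2 were lower.

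The share of all counted reads that fell near receptors differed between the groups by less than the spread between libraries. It was 0.0989%, 0.104% and 0.0919% in knockdown and 0.0989%, 0.0989% and 0.104% in control libraries (0.0982% ± 0.00602 in knockdown and 0.1004% ± 0.00268 in control, SD, n = 3 each, exact permutation p = 0.7). The Vmn1r share was 0.0144%, 0.0140% and 0.0127% in knockdown and 0.0105%, 0.0110% and 0.0121% in control libraries, without overlap. This is a ratio of 1.22 (exact permutation p = 0.1, the smallest that 3 against 3 allows, adjusted over 4 shares p = 0.4). Off chromosome 13 the Vmn1r share was instead lower, at 0.00670% in knockdown and 0.00754% in control libraries (exact p = 0.1). The Olfr share was 0.0790% ± 0.00427 in knockdown and 0.0824% ± 0.00192 in control libraries (exact permutation p = 0.3), and the Vmn2r share 0.00557% ± 0.00109 in knockdown and 0.00686% ± 0.000364 in control libraries (exact permutation p = 0.2), each with adjusted p = 0.4.

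**Figure D5:**
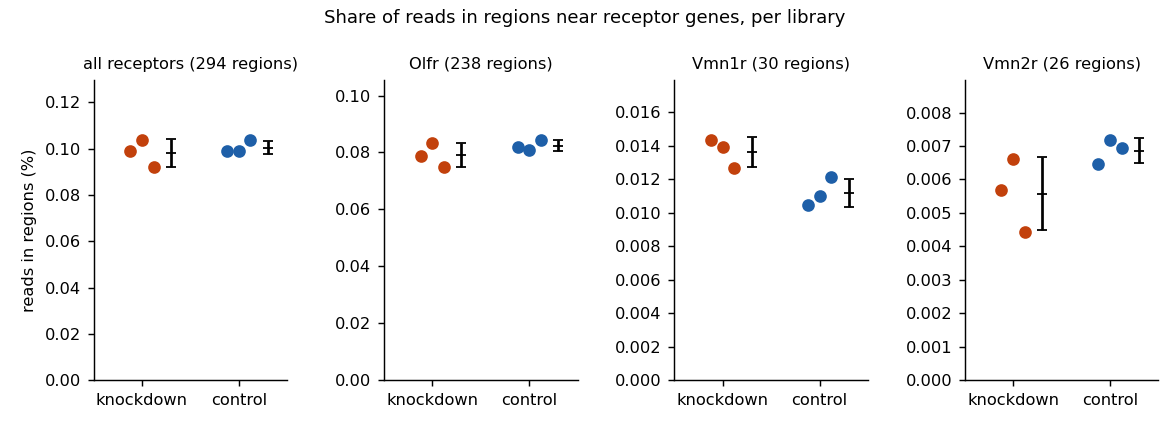
Percent of reads in regions that fell near Olfr, Vmn1r and Vmn2r genes and near all of them, 1 point per library, knockdown left of control, with bars for mean ± SD (n = 3 each). Knockdown and control libraries overlap for all receptors together (0.0982% and 0.1004%), and separate for Vmn1r.

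Summed per gene, losses were called more often than gains. In an edgeR fit over 17280 genes with its own scaling, 23 of 191 receptor genes (12.04%) were higher and 45 (23.6%) lower, against 18.0% and 19.1% of all genes, and the median log2 change was -0.25 against -0.003 over all genes. The largest gains were Olfr543 (2.75), Olfr1331 (2.50), Vmn2r23 (2.29), Olfr591 (2.01) and Olfr202 (2.00). The largest losses were Olfr373 (-1.50), Olfr1375 (-1.41), Olfr1385 (-1.40), Olfr922 (-1.38) and Vmn2r19 (-1.29), and all 10 genes had a single region. Of the 5 genes with most regions, Vmn1r223 (7 regions) changed by 1.16 (SE 0.12) and Olfr225 (5 regions) by -0.54 (edgeR adjusted p = 0.0016). Olfr291, Olfr455 and Olfr1402, with 5 regions each, had changes of -0.18, -0.39 and -0.33 that did not pass the threshold (edgeR adjusted p = 0.18, 0.19 and 0.19). The larger share of losses near receptors turned to a smaller one in 2 settings. With DESeq2 losses numbered 28 (14.4%, against 17.0% of other genes), and without knockdown replicate 3 they numbered 27 (13.99%, against 15.3%). The share stayed larger, by less, without control replicate 2 (26, 13.6% against 12.3%) and without control replicate 3 (28, 14.7% against 13.7%). It was larger by more without knockdown replicate 2 (53, 27.6% against 20.9%) and with assignment within 10 kb (38, 28.4% against 19.7%). Gains without control replicate 2 numbered 15 (7.85%, against 11.7%).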

How the data were processed

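ATAC-seq libraries of 3 knockdown and 3 control samples were grouped by the genotype label. The submitters' processing notes list, without roles, MACS2, Picard, SAMtools 1.9, BWA, Trimmomatic and FastQC, and mm10 as the build. How regions were defined and reads counted, and whether reads were shifted for the transposase, is not stated in these notes or labels. The labels' protocols describe a general DNA library kit. The columns, per the file headers, are reads (a count), RPKM and score. The deposited counts are whole and unnormalized, and entered the tests unchanged. The deposited RPKM values gave the library totals, and the deposited score was not used.

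Counts of all regions were tested with edgeR 4.0.16 in R 4.3.3 (quasi-likelihood test, TMM scaling, filterByExpr, Benjamini-Hochberg adjustment, threshold 0.05), after a check on simulated counts. Genes were the 21896 protein-coding genes of RefSeq GRCm38.p6, and promoter windows came from RefSeq for the same assembly. Exact permutation tests are two-sided. Members and lists were chosen with earlier results of these data known. Named were the 8 called regions with the largest gain and loss, the 8 most accessible, the most accessible region of 10 preset receptors, the 5 receptor genes with the largest summed change each way, the 5 genes and 5 arrays with most regions, and arrays with over 50% of tested regions called in 1 direction. Other arrays, the Vmn1r223, second Vmn1r39, Vmn2r19 and Olfr95 regions and regions at tRNA genes were chosen once their values had been seen. Alternatives were DESeq2 1.42.0, other scalings, no filter, assignment within 10 kb, overlap only, grouping by title and each library left out. Region sequences were not analysed here.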

Additional observations from a re-analysis of the deposited data

How the results depend on the processing

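No paired analysis was made, because the labels name no pairs. The titles number the libraries 2, 4 and 6 in knockdown and 1, 3 and 5 in control, so the groups share no number. Receptor regions called higher numbered 32 to 44 with 1 library left out, where 9.91% to 15.6% of all regions were higher. They numbered 24 of 175 tested within 10 kb, 2 of 29 for overlapping regions alone and 0 when grouped by title. Regions called lower numbered 22 to 54 with 1 library left out, where 7.66% to 12.9% of all regions were lower. They numbered 27 with DESeq2 (7.69% of all regions) and 84 with library totals (24.6%). Within 10 kb 28 of 175 were lower, for overlapping regions alone 7 of 29, and by title 0. The edgeR fit with TMM called 45 higher and 46 lower of 288, so the smaller counts within 10 kb and for overlap come with fewer regions tested. By title, 12 were higher and 31 lower at an unadjusted p under 0.05 in edgeR. The median log2 change was -0.37 with library totals, where all other regions had -0.27. The difference in read share over all receptors, knockdown minus control in percentage points, ranged from -0.00507 to 0.000925 with 1 library left out. For Vmn1r it was -0.000381 within 10 kb, -0.000103 for overlapping regions, and, in alternatives chosen after seeing the data, -0.000613 without regions at tRNA genes and -0.000842 without the chromosome 13 array. For Vmn2r it was 0.000175 for overlapping regions. Summed per gene with 1 library left out, gains numbered 15 to 23 (11.7% to 20.1% of other genes) and losses 26 to 53 (12.3% to 20.9%). With DESeq2 losses numbered 28 (17.0% of other genes). By title both were 0, with 6 gains and 21 losses at an unadjusted p under 0.05 in edgeR. Among the 26 named regions, library totals turned the log2 change to -0.051 near Olfr1358, -0.078 near Olfr288, -0.22 near Olfr94 and -0.16 near Vmn1r4. Reads in regions as the scaling gave -0.076 near Olfr94 and -0.0081 near Vmn1r4, which had -0.044 by title. With 1 library left out the Olfr94 change ranged from -0.031 to 0.11. None of these 4 regions was called. The causes were not tested. Low counts limit single regions, with a median of 23 to 26 reads in knockdown and 24 to 45 in control libraries.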

Other observations

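Genes that receptor choice and signalling depend on, many of them also used in brain, had 335 regions assigned to 26 of 27 genes, of which 55 (16.4%) were higher and 34 (10.1%) lower in knockdown (edgeR adjusted p under 0.05, median log2 change 0.03), against 15.4% and 12.7% of all regions. At its most accessible region, the G protein subunit Gnal had 29.0, 27.9 and 30.6 CPM in knockdown, against 21.96, 18.8 and 18.9 CPM in control libraries (log2 change 0.56, edgeR adjusted p = 9.1e-04). Gnao1, a G protein subunit of vomeronasal neurons that is widespread in brain, had 57.2 ± 6.72 CPM in knockdown and 37.4 ± 1.20 CPM in control libraries (SD, n = 3 each, log2 change 0.61). Omp, the marker protein of mature olfactory neurons, had a lower region, with 2.49, 1.59 and 1.86 CPM in knockdown and 4.41, 4.49 and 4.69 CPM in control libraries (log2 change -1.19, edgeR adjusted p = 0.0011). Lhx2 had 6.96 ± 0.323 CPM in knockdown and 8.15 ± 0.383 CPM in control libraries and was not called (edgeR adjusted p = 0.29). The most accessible regions of Cnga4, Gnai2, Lbr, Ebf2 and Adcy3 were also called higher. Cnga4 had the strongest region of the list, with 89.9 ± 10.3 CPM in knockdown and 67.8 ± 5.76 CPM in control libraries (edgeR adjusted p = 0.0062). Omp was the only gene of the list called lower at its most accessible region.

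Genes for heterochromatin and lamina proteins had 111 regions at 15 genes, of which 25 (22.5%) were higher and 14 (12.6%) lower (median log2 change 0.01), against 15.4% and 12.7% of all regions. The strongest region was higher at Lmnb1, a lamin (0.48), Trim28, a corepressor (0.43), Kmt5b and Kmt5c, histone H4 lysine 20 methyltransferases (0.41 and 0.33), and Cbx3 and Cbx5, which bind methylated histone H3 lysine 9 (0.31 and 0.30). It was lower at Lmnb2, another lamin (-0.28). All 7 passed the edgeR threshold, and the other 8 genes did not at this region.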
